A study of Mus musculus with 22 samples.

Results

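Of the 22 arrays of the series, 10 are described here: the 7 liver samples taken after 42 weeks of TCPOBOP and the 3 vehicle controls they were set against, chosen by the groups in the sample titles. TCPOBOP is a synthetic ligand that switches on the mouse constitutive androstane receptor (CAR). In the treated group, female C3H mice had been given TCPOBOP at 3 mg/kg by gavage once a week for 42 weeks, and in the control group age-matched female C3H mice had received DMSO in corn oil. A further 3 samples after 28 weeks of the same weekly dose are used for comparison in places, and 9 samples that had also received the carcinogen DENA (90 mg/kg) entered only the joint normalization and the shared estimate of the spread. The labels name no allele or transgene in any group. RNA came from microdissected samples, and liver cancers were seen at these times. The labels do not say which samples were tumour, what age each control had reached, or how many mice the arrays stand for; where arrays share a mouse, the p-values reflect technical spread only and are too small.

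CAR is a nuclear receptor of the hepatocyte that senses foreign compounds and turns on genes for their oxidation, conjugation and export. In mice, a strong CAR agonist also makes hepatocytes divide and the liver grow, and prolonged activation promotes liver tumours without damaging DNA. A hepatocyte that becomes malignant commonly loses part of its adult programme, such as plasma protein, bile acid and amino acid metabolism, and regains genes of fetal liver.

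The unit is the normalized log2 signal of one probe per gene, called the level below, so that a difference of 1 is a 2-fold change. Levels on the 10 arrays ran between 4.27, close to background, and 15.51, where the scale is compressed at its top. A change is the mean level at 42 weeks of TCPOBOP minus the mean of the controls, given ± its standard error, and a gene is called where limma's adjusted p is under 0.05. For the 7 treated arrays the lowest, median and highest level are given in that order, and for the controls all 3 levels. Between 34.8% and 40.6% of the 45281 probes were detected on the treated arrays and between 38.0% and 41.2% on the control arrays. Pearson r across genes was 0.934 to 0.967 between treated arrays, 0.978 to 0.988 between controls and 0.858 to 0.913 between a treated and a control array. Slide 1 held treated replicates 1 to 3 and no control, slide 2 held treated replicates 4 to 7 with control replicate 1, and the other controls lay on 1 slide each with no treated array.

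Differences between the groups reached across the measured liver transcriptome. Of 10650 genes tested, 3881 were called (36.4%): 1842 were higher after 42 weeks of TCPOBOP (17.3%) and 2039 were lower (19.1%), with a median change over all genes of -0.02. With slide as a block in the fit 1371 were higher and 1476 lower, and without control replicate 2 the counts were 1337 and 1351. The 7 treated and 3 control arrays did not overlap for 3128 genes (29.4%), and 2900 genes (27.2%) were called and did not overlap. The change exceeded 2-fold in either direction for 1007 higher and 1084 lower genes, and 16-fold (a log2 change over 4) for 82 higher and 51 lower genes. Among the higher genes, 242 were detected on no control array, out of 490 such genes tested. Among the lower ones 85 were detected on no treated array, out of 93 tested. Detection on any 3 of the 7 treated arrays admits a gene of the first kind, but all 3 controls are needed for the second. The 2 counts therefore cannot be compared.

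The largest rises were mostly of genes near background in the controls. Aldh3a1, an aldehyde dehydrogenase of cornea and stomach, had levels of 10.55, 11.91 and 12.90 in treated samples, against 5.29, 4.45 and 4.48 in controls (7.02 ± 0.75, adjusted p = 1.99e-07). Chil1, a secreted chitinase-like protein, lay at 9.98, 11.82 and 13.21 in treated samples and was detected on no control array, so that it was at least 102-fold higher. Likewise undetected in every control were Ptpn14, a tyrosine phosphatase that restrains the transcriptional activator YAP (at least 66.5-fold higher), and Bglap2, which encodes the bone protein osteocalcin (at least 64.2-fold). The probe shown for Slc12a1, the loop diuretic-sensitive salt transporter of the kidney, was at least 84.4-fold higher and undetected in every control, while a second probe was detected on 2 control arrays. These bounds set the mean of the treated arrays against the lowest signal counted as detected on the control arrays. Hkdc1, a hexokinase-related gene, scattered little: its levels of 11.20, 11.65 and 12.43 in treated samples stood against 5.86, 4.70 and 4.62 in controls (6.72 ± 0.32, adjusted p = 3.77e-13). The protease gene Tmprss7 rose by 6.43 ± 0.23 (adjusted p = 6.77e-15), the transmembrane gene Sidt1 by 6.22 ± 0.35 and the surface protein gene Ly6d by 6.40 ± 0.84. Pnliprp1, a pancreatic lipase relative, was near the top of the scale in every treated sample (14.98, 15.14 and 15.27), while the controls were scattered at 10.65, 9.53 and 6.25. The adaptor gene Sdcbp2 (6.23 ± 0.58) and the cytoskeletal gene Limch1 (5.53 ± 0.65) completed the 12 genes with the largest rises by the naming rule.

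The largest falls were mostly of genes with high levels in the controls. A1bg, a plasma glycoprotein expressed in female mouse liver, lay at 4.52, 5.14 and 10.07 in treated samples and 15.11, 15.22 and 15.46 in controls (-9.10 ± 1.63, adjusted p = 0.000152), and only 4 of the 7 treated arrays detected it. Cyp4f14, which hydroxylates leukotriene B4 and fatty acids, had levels of 4.34, 5.99 and 8.37 in treated samples, against 13.18, 13.43 and 13.37 in controls (-7.50 ± 0.80, adjusted p = 1.86e-07). Sult2a8, the bile acid sulfotransferase of mouse liver, fell by 7.36 ± 0.42 and was above background on 2 treated arrays. Bhmt, which remethylates homocysteine with betaine, fell by 7.09 ± 0.98. Dct, known as a pigment cell enzyme, was measured at 4.36, 4.43 and 5.14 in treated livers, where 1 array detected it, and at 12.12, 11.89 and 11.77 in controls (-7.39 ± 0.29, adjusted p = 1.35e-14). Lrtm1, a leucine-rich membrane protein gene, was detected on no treated array and was at least 53.1-fold lower. The rest of the 12 were Hamp and Hamp2, taken up below, Serpinf1, an anti-angiogenic serpin (-6.55 ± 1.12), the carboxylesterase Ces3b (-6.03 ± 0.85), the dehydrogenase Bdh2 (-5.91 ± 0.81) and the pheromone carrier Mup3 (-5.86 ± 1.29). Probes of close relatives (Hamp and Hamp2, the Mup, Gsta and Gstp genes, C4a and C4b, Cyp3a41b and its neighbours) may bind each other's RNA, so such a name can stand for its family.

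**Figure D1:**
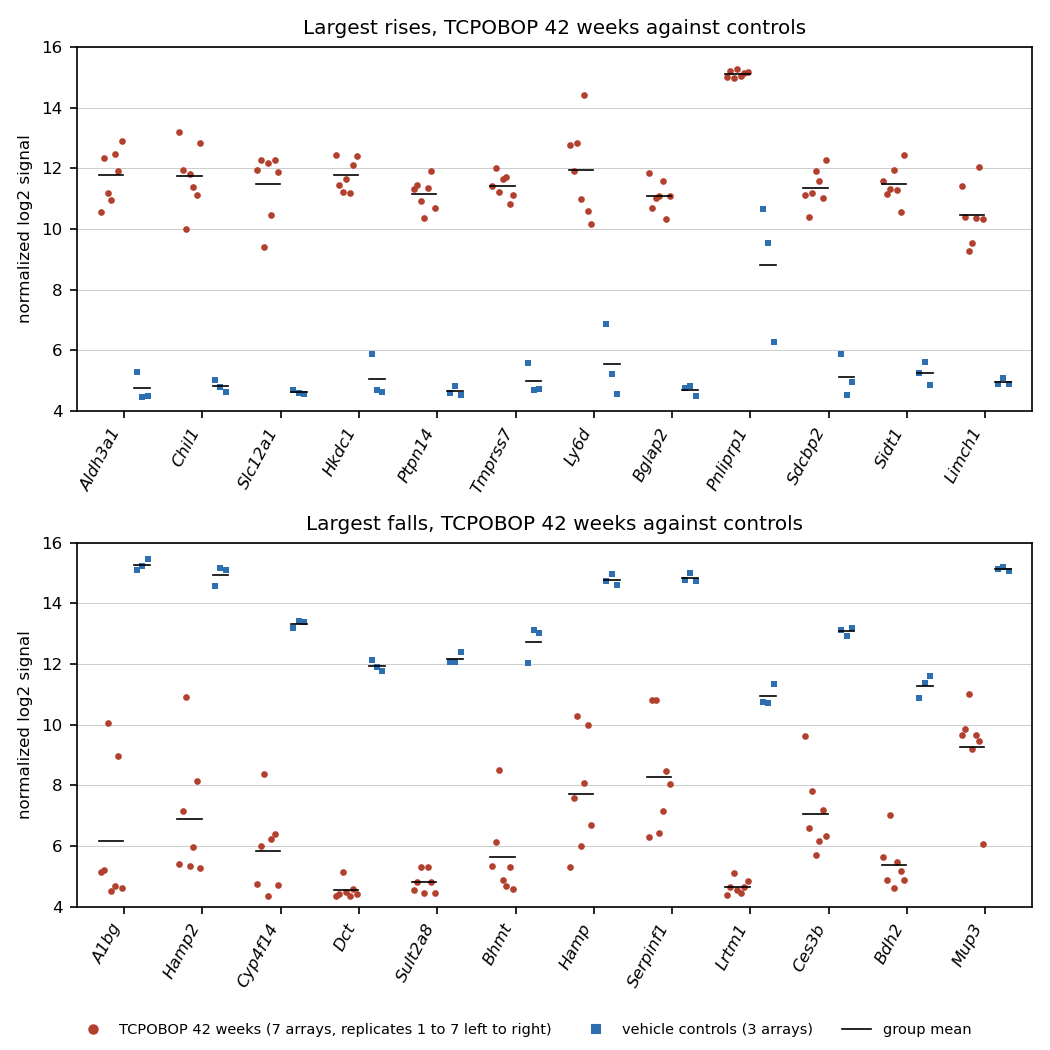
Normalized log2 signal (vertical axis) of the 12 genes with the largest rise (top) and the 12 with the largest fall (bottom) on each array. Red circles are the 7 TCPOBOP 42 weeks samples, blue squares the 3 controls and black lines group means. Only genes in which no treated sample overlaps a control were eligible. The treated samples scatter most for A1bg, Hamp2 and Hamp.

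Genes for the first step of drug metabolism, on which CAR acts, were mostly higher. Of 24 tested CAR target and phase I genes, 14 were higher and 3 lower, with a median change of 0.88 against -0.02 over all genes. The median was 0.94 with slide as a block and 1.23 within slide 2. Cyp2b10, the classical CAR target, stood at 15.05, 15.16 and 15.31 in treated samples, against 13.29, 13.57 and 13.63 in controls (1.70 ± 0.13, adjusted p = 1.1e-09), and the treated values sit at the top of the scale. Cyp2c55, another inducible P450, had levels of 13.70, 14.41 and 14.68 in treated samples and 10.29, 11.17 and 11.34 in controls (3.42 ± 0.21, adjusted p = 2.94e-11). Ephx1, the microsomal epoxide hydrolase, rose by 2.77 ± 0.17 and Cyp1a2, which oxidises aromatic amines, by 1.67 ± 0.19. Against this direction, Cyp2b9 lay at 8.47, 9.71 and 11.72 in treated samples and 13.62, 13.64 and 13.55 in controls (-3.43 ± 0.79, adjusted p = 0.00171). Cyp2c39 also fell by 3.33 ± 0.60. Nr1i3, the gene for CAR itself, was measured at 10.41, 11.19 and 11.92 in treated samples and 12.30, 12.12 and 12.06 in controls (-0.96 ± 0.28, adjusted p = 0.00934), but its 5 probes do not all point one way.

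Conjugating enzymes split by gene. Of 23 glutathione transferase genes tested, 12 were higher and 4 lower (median change 0.80, or 0.85 with slide as a block and 1.00 within slide 2). Gstp2, of the pi class that marks altered foci in rodent livers, lay at 10.68, 11.46 and 12.88 in treated samples and 7.08, 5.70 and 6.02 in controls (5.48 ± 0.56, adjusted p = 9.49e-08). Gstm3 rose by 4.85 ± 0.26, Gsta1 by 4.25 ± 0.41 and Gsta2 by 4.10 ± 0.44. Treated samples and controls did not overlap for 13 of the 23 genes, these 3 among them, against 29.4% of all genes. Glucuronosyl- and sulfotransferases showed no common direction, with 9 higher and 8 lower of 27 tested; without control replicate 3 the lower count was 5. Sult1e1, the estrogen sulfotransferase, was above background on all 7 treated arrays (8.57, 9.63 and 10.45) and on no control array, at least 21.7-fold higher. Sult3a1, a sulfotransferase of female liver, had levels of 4.55, 4.85 and 5.80 in treated samples, against 8.67, 8.52 and 8.37 in controls (-3.55 ± 0.47, adjusted p = 3.7e-06), and Ugt3a1 fell by 3.51 ± 0.72.

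NRF2, a transcription factor freed by oxidants and electrophiles, drives genes for glutathione synthesis, quinone reduction and export through the antioxidant response element. Of 22 tested NRF2 targets, 13 were higher and 1 was lower (median change 1.22, or 0.97 with slide as a block and 1.23 within slide 2). Gpx2, a glutathione peroxidase, was detected on no control array and lay at 5.97, 10.01 and 12.00 in treated samples, at least 20.9-fold higher on their mean (adjusted p = 0.00234), with replicate 2 lowest and replicate 1 highest. Slc7a11, the cystine importer that feeds glutathione synthesis, ran at 6.68, 8.76 and 12.18 in treated samples on a probe undetected in controls. It was at least 14.1-fold higher (adjusted p = 0.00359), while another of its probes was detected on 1 control array. The probes shown for Gpx2 and Slc7a11 passed the detection filter only through treated arrays. Their adjusted p-values therefore rest in part on signals at background. Cbr3, a carbonyl reductase, had levels of 9.22, 10.15 and 12.47 in treated samples and 5.62, 6.53 and 5.64 in controls (4.31 ± 0.61, adjusted p = 9.69e-06). Abcc4, a pump of the blood-facing membrane that exports bile acids and conjugates, had levels of 12.04, 12.78 and 13.31 in treated samples, against 7.95, 8.67 and 8.74 in controls (4.25 ± 0.27, adjusted p = 3.99e-11). Abcc2, the corresponding pump of the bile canaliculus, had levels of 12.14, 13.28 and 13.59 in treated samples and 10.96, 10.89 and 11.002 in controls (2.22 ± 0.26, adjusted p = 5.94e-07). Treated replicate 3 was the lowest array for both pumps. Both Gpx2 and Slc7a11 were also higher than after 28 weeks of TCPOBOP: Gpx2, detected on 1 of the 3 arrays at 28 weeks, differed by 4.60 (adjusted p = 0.0073), and Slc7a11, detected on 0 of them, was at least 14.1-fold higher (adjusted p = 0.0101).

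The upstream sequences of both pumps are shown because the pumps moved together and each window carries the core of the antioxidant response element. The windows are the 250 bases before the annotated start in RefSeq (GRCm38.p6), read 5′ to 3′ in the direction of transcription: Abcc4 at chr14:118706220-118706469 on the minus strand, chosen of its 2 windows in the table as the one with a match, and Abcc2 at chr19:43782058-43782307 on the plus strand. Capitals mark the match to TGACNNNGC, searched on both strands; it begins at position -25 from the start in Abcc4, where it reads on the opposite strand, and at -98 in Abcc2.
Abcc4: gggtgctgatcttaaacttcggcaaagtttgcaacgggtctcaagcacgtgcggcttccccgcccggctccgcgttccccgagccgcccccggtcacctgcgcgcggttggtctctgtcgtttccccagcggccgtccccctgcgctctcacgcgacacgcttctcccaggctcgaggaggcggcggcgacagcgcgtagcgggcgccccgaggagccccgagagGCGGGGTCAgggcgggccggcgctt
Abcc2: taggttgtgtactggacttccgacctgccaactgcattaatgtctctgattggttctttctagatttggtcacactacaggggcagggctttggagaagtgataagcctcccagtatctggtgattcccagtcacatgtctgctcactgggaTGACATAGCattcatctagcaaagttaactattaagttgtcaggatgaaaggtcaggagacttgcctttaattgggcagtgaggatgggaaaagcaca
The core was found in 10.2% of all 32851 windows, in 13.4% of the 8627 tested genes with a window and in 5 of 19 NRF2 targets with one (Gclm, Txnrd1, Prdx1, Abcc2 and Abcc4). Beside the pumps, Gclm was called higher (0.79, adjusted p = 0.00767). Txnrd1 (0.47, adjusted p = 0.0837) and Prdx1 (-0.04, adjusted p = 0.857) carry the core too but did not pass the test. A match is only a run of letters, and binding was not measured here.

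Bile acid genes were lower in part. Of 20 tested genes of bile acid synthesis, 2 were higher and 9 lower (median change -0.56, or -0.47 with slide as a block and -0.59 within slide 2). Cyp2c70, which makes the muricholic acids particular to mice, lay at 11.51, 12.68 and 13.25 in treated samples and 15.16, 15.19 and 15.33 in controls (-2.72 ± 0.43, adjusted p = 3.47e-05). Baat, which joins bile acids to taurine, had levels of 9.74, 10.46 and 10.80 in treated samples, against 11.89, 12.43 and 12.35 in controls (-1.89 ± 0.30, adjusted p = 4.77e-05). Cyp39a1, an oxysterol hydroxylase, went the other way and rose by 2.32 ± 0.39. Among 19 carriers that bring solutes into hepatocytes, 10 were lower and 0 higher (median change -0.76, or -0.68 with slide as a block and -0.97 within slide 2). Slco2b1, an organic anion carrier, had levels of 7.29, 8.01 and 8.75 in treated samples and 12.76, 12.67 and 12.79 in controls (-4.66 ± 0.54, adjusted p = 6.05e-07). Slc22a30 fell by 4.35 ± 0.59, Slc22a28 fell by 4.22 ± 0.53 and the glutamine carrier Slc38a3 fell by 2.53 ± 0.30. Export pumps split evenly, with 5 higher and 5 lower of 15 tested (2 lower without control replicate 3): beside Abcc4 and Abcc2, the bile acid exporter subunit Slc51b rose by 2.29 ± 0.54, while Abcc6, the pump whose loss causes soft tissue calcification, fell by 2.68 ± 0.43.

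Lipid genes moved apart by function. Of 23 tested genes of fatty acid synthesis, 11 were lower and 1 higher (median change -0.77, or -0.53 with slide as a block and -0.82 within slide 2); the lower count was 7 with slide as a block or with median scaling and 6 without control replicate 3. Srebf1, the transcription factor that drives this pathway, had levels of 7.44, 7.81 and 8.58 in treated samples, against 10.21, 9.75 and 10.56 in controls (-2.28 ± 0.32, adjusted p = 9.69e-06). Acacb, an acetyl-CoA carboxylase, lay at 5.92, 8.41 and 9.87 in treated samples and 10.54, 11.07 and 10.87 in controls (-2.57 ± 0.59, adjusted p = 0.0016), and the elongase Elovl5 fell by 1.88 ± 0.28. Genes that bind, store or release fat divided: 5 of 18 were higher and 6 lower. Cidec, a protein that fuses lipid droplets, had levels of 7.88, 8.98 and 10.24 in treated samples and 5.53, 4.65 and 4.64 in controls, 1 of which detected it (4.03 ± 0.38, adjusted p = 2.92e-08). Lpl, the lipoprotein lipase, stood at 12.92, 13.34 and 13.79 in treated samples, against 10.44, 10.97 and 10.67 in controls (2.71 ± 0.24, adjusted p = 1.19e-08). G0s2, which inhibits fat release from droplets, fell by 3.29 ± 0.54 and the fatty acid carrier Fabp5 fell by 2.52 ± 0.47. Pparg, the receptor that turns on Cidec and Lpl in fat cells, had levels of 8.64, 9.64 and 10.29 in treated samples and 4.69, 5.09 and 4.53 in controls, with 1 control array above background (4.75 ± 0.37, adjusted p = 1.22e-09). Fat burning was lower in part, with 11 of 28 genes lower and 1 higher (median change -0.37, or -0.47 with slide as a block and -0.57 within slide 2), among them its regulator Ppara (-1.48 ± 0.23, adjusted p = 3.6e-05). Apolipoprotein genes were lower for 9 of 20 and higher for 2, the lower count being 6 with slide as a block, without control replicate 1 or without control replicate 2. Apoa4, an apolipoprotein that rises with liver fat, was 1 of the 2 higher, with levels of 14.91, 15.22 and 15.37 in treated samples and 13.92, 13.23 and 12.53 in controls (1.93 ± 0.21, adjusted p = 2.14e-07).

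Sugar genes leaned towards glycolysis. Of 15 tested glycolytic and hexokinase genes, 10 were higher and 1 lower (median change 0.84, or 0.77 with slide as a block and 1.07 within slide 2). Aldoa, the muscle and fetal form of aldolase, had levels of 11.01, 11.40 and 11.75 in treated samples, against 9.84, 9.81 and 9.57 in controls (1.69 ± 0.22, adjusted p = 2.55e-06). Pkm, the pyruvate kinase of tumours and non-hepatic tissue, rose by 1.69 ± 0.44 (adjusted p = 0.00409), with 1 treated array inside the range of the controls. Of 20 genes of gluconeogenesis and glycogen, 3 were higher and 8 lower (median change -0.26, or -0.25 with slide as a block and -0.36 within slide 2). Ppp1r3c, which steers glycogen synthesis, lay at 7.59, 8.28 and 9.15 in treated samples and 12.56, 11.98 and 11.56 in controls (-3.70 ± 0.76, adjusted p = 0.000593). Pck1, the gluconeogenic carboxykinase, fell by 3.30 ± 0.91 (adjusted p = 0.00677, but 0.0570 with slide as a block). Igfbp1, a growth factor binding protein that insulin holds down, had levels of 8.21, 9.19 and 10.26 in treated samples and 5.39, 6.55 and 5.69 in controls (3.42 ± 0.59, adjusted p = 9.76e-05).

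Among the 48 lists, amino acid breakdown had the most genes lower. Of 42 tested, 30 were lower and 1 higher (median change -1.04, or -1.01 with slide as a block and -0.89 within slide 2), and 25 to 32 were lower when an array was left out. Hal, the first enzyme of histidine breakdown, had levels of 7.92, 8.80 and 10.58 in treated samples, against 12.02, 12.24 and 11.97 in controls (-3.19 ± 0.67, adjusted p = 0.000768). Tat, the tyrosine aminotransferase, had levels of 4.92, 5.60 and 7.10 in treated samples and 8.56, 9.18 and 8.90 in controls (-3.12 ± 0.57, adjusted p = 0.000205). Gnmt, which disposes of surplus methyl groups, lay at 10.72, 12.10 and 12.97 in treated samples and 14.98, 15.11 and 15.32 in controls (-3.04 ± 0.45, adjusted p = 1.87e-05). Treated samples and controls did not overlap for 32 of the 42 genes, against 29.4% of all genes. Hal, Tat, Gnmt and Bhmt, picked as the 4 members with the largest change, were among the 32. In the urea cycle, 6 of 12 genes were lower and 0 higher (median change -1.17, or -0.98 with slide as a block and -1.13 within slide 2); 4 were lower with slide as a block, with median scaling or without control replicate 2. Ass1, argininosuccinate synthase, had levels of 11.97, 12.52 and 13.73 in treated samples, against 14.24, 15.03 and 14.94 in controls (-2.13 ± 0.40, adjusted p = 0.000266). Otc, ornithine transcarbamylase, fell by 1.78 ± 0.50 (adjusted p = 0.00817, but 0.107 with slide as a block). Among genes of retinol and vitamin handling, 8 of 19 were lower and 1 higher, with Rdh16, a retinol dehydrogenase, at 5.50, 6.36 and 8.84 in treated samples and 10.85, 11.16 and 11.25 in controls (-4.30 ± 0.58, adjusted p = 4.72e-06).

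**Figure D2:**
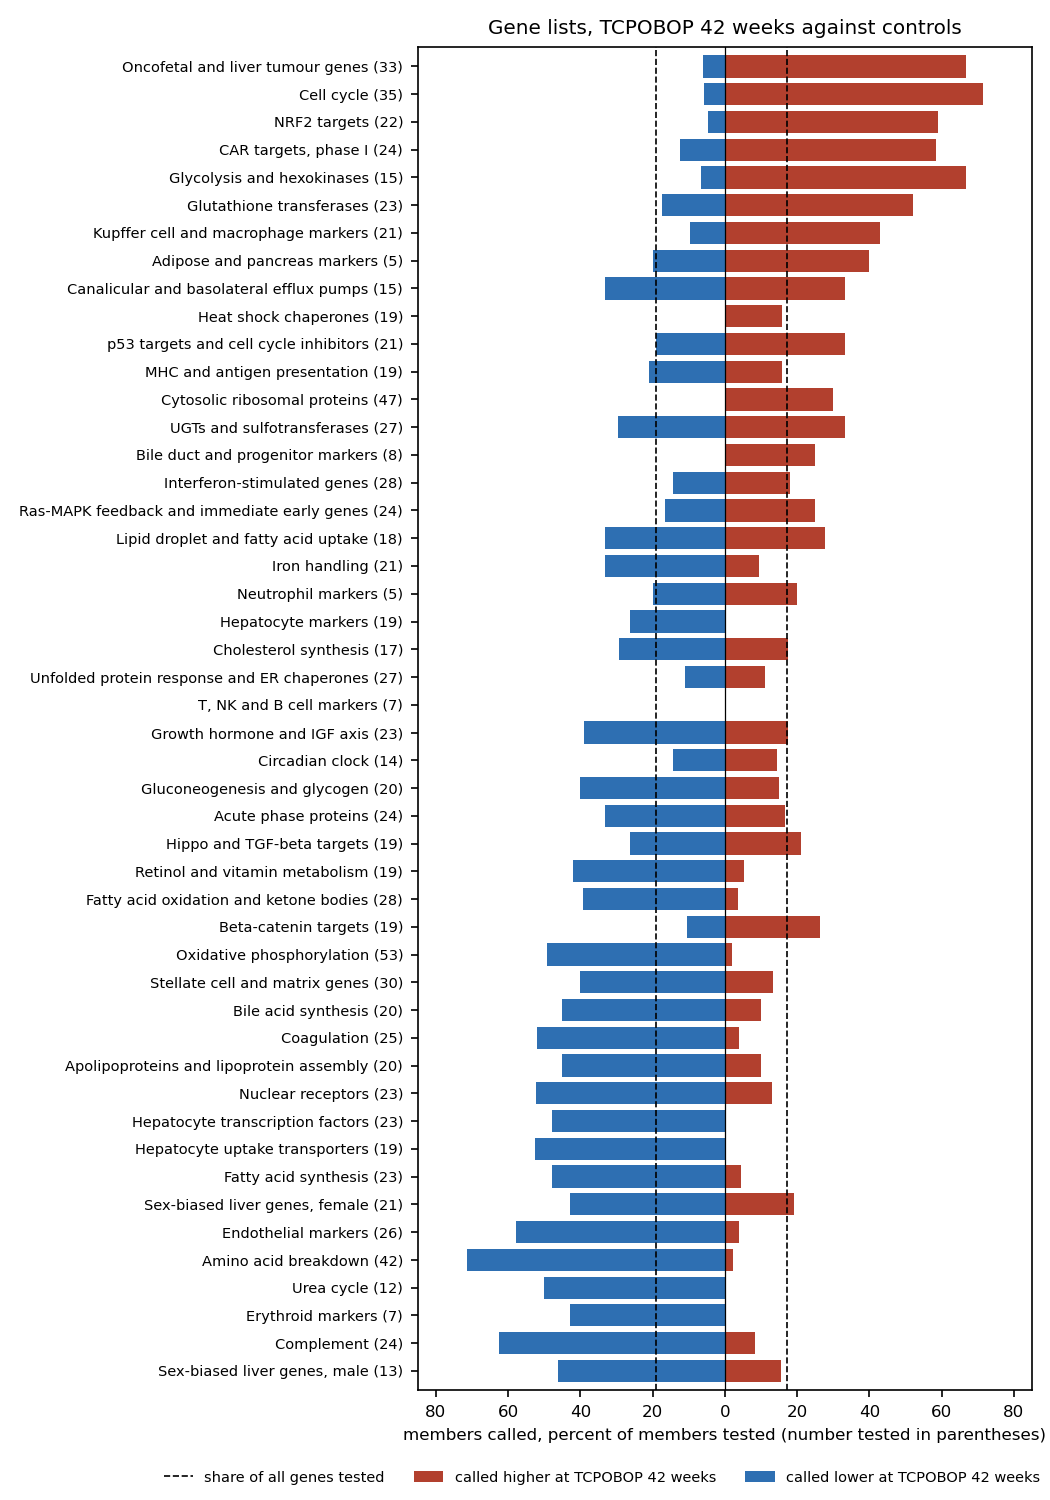
Share of the tested members of each gene list that was called higher (red, to the right) or lower (blue, to the left) at 42 weeks of TCPOBOP against controls, in percent, ordered by the list's median change. Dashed lines mark the shares over all genes tested, 17.3% higher and 19.1% lower; oncofetal, cell cycle and NRF2 target genes head the lists, and amino acid breakdown and complement have the longest blue bars.

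Plasma proteins made by the liver fell in several systems. Of 24 tested complement genes, 15 were lower and 2 higher (median change -1.32, or -1.05 with slide as a block and -1.33 within slide 2). C9, which forms the pore of the membrane attack complex, had levels of 4.61, 7.06 and 11.04 in treated samples, against 13.16, 12.66 and 13.19 in controls (-5.80 ± 1.19, adjusted p = 0.000573). Of its partners and of the earlier components, C8a lay at 4.91, 6.20 and 9.05 in treated samples and 10.49, 11.07 and 10.92 in controls (-4.06 ± 0.89, adjusted p = 0.00113), and C4a fell by 4.51 ± 0.70. Treated replicate 3 was the highest of the 7 for C9, C8a and C4a. Of 25 coagulation genes, 13 were lower and 1 higher (median change -0.57, or -0.43 with slide as a block and -0.65 within slide 2), including F11 (-2.07 ± 0.38, adjusted p = 0.000229) and F8 (-2.35 ± 0.42, adjusted p = 0.000155); F8 is made mainly by liver endothelium. Acute phase proteins had 4 higher (16.7%, against 17.3% of all genes) and 8 lower (33.3%, against 19.1%) of 24. The lower count was 4 with slide as a block or without control replicate 3, and 5 without control replicate 2. Within that list Orm2, an acute phase glycoprotein, had levels of 14.63, 15.04 and 15.31 in treated samples and 11.43, 11.86 and 11.39 in controls (3.44 ± 0.21, adjusted p = 1.75e-11). Lcn2, the iron-scavenging lipocalin, was higher and scattered, at 9.02, 12.23 and 14.09 in treated samples and 8.43, 7.57 and 7.38 in controls (3.88 ± 0.89, adjusted p = 0.0017).

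Hepcidin, the liver hormone that blocks iron export into blood, is set by a BMP signal that also drives Id1 and Id3. Its genes were among the largest falls. Hamp had levels of 5.29, 7.60 and 10.29 in treated samples, against 14.74, 14.98 and 14.62 in controls (-7.08 ± 1.33, adjusted p = 0.000244). Hamp2, the second hepcidin gene of mice, had levels of 5.29, 5.96 and 10.92 in treated samples and 14.58, 15.17 and 15.11 in controls (-8.07 ± 1.42, adjusted p = 0.000124). The highest treated sample was replicate 3 for both, and it still lay below every control. Id1 fell by 2.06 ± 0.37 and Id3 fell by 2.96 ± 0.51, with levels for Id3 of 4.94, 5.52 and 6.78 in treated samples and 8.31, 8.80 and 8.73 in controls. Tfrc, the receptor that imports transferrin iron, moved the other way, at 10.49, 10.86 and 11.44 in treated samples and 8.77, 8.31 and 9.07 in controls (2.28 ± 0.21, adjusted p = 2.1e-08). Of 21 tested iron genes, 7 were lower and 2 higher (median change 0.00, or 0.04 with slide as a block and -0.12 within slide 2), the higher count running from 1 to 5 over the alternatives. Both hepcidin genes were also lower than after 28 weeks of TCPOBOP, where Hamp differed by -6.10 (adjusted p = 0.00351) and Hamp2 by -7.51 (adjusted p = 0.00113).

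The upstream sequences of both hepcidin genes are shown because the genes fell together while their windows differ at a known element. They are the 250 bases before each annotated start in RefSeq (GRCm38.p6), both on the minus strand and read in the direction of transcription: Hamp at chr7:30944030-30944279 and Hamp2 at chr7:30924182-30924431. Capitals mark GGCGCC, the BMP-responsive element, searched on both strands, which begins at position -109 from the start of Hamp and has no match in the window of Hamp2.
Hamp: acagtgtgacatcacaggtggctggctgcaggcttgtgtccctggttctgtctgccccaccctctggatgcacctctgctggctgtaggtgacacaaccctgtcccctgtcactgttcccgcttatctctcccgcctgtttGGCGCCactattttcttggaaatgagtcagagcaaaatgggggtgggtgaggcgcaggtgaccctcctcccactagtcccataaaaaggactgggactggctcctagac
Hamp2: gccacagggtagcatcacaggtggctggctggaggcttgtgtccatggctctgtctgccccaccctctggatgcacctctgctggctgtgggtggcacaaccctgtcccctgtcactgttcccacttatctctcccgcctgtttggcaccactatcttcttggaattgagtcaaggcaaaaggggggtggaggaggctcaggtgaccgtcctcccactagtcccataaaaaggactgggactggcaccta
Aligned, the windows are identical at 227 of 253 columns (89.7%). The element's letters were found in 9.59% of all windows, in 18.3% of the tested genes with a window and in 3 of 12 iron genes with one (Hamp, Tfrc and Bmpr1a); a match or its absence shows only the letters of this window.

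**Figure D3:**
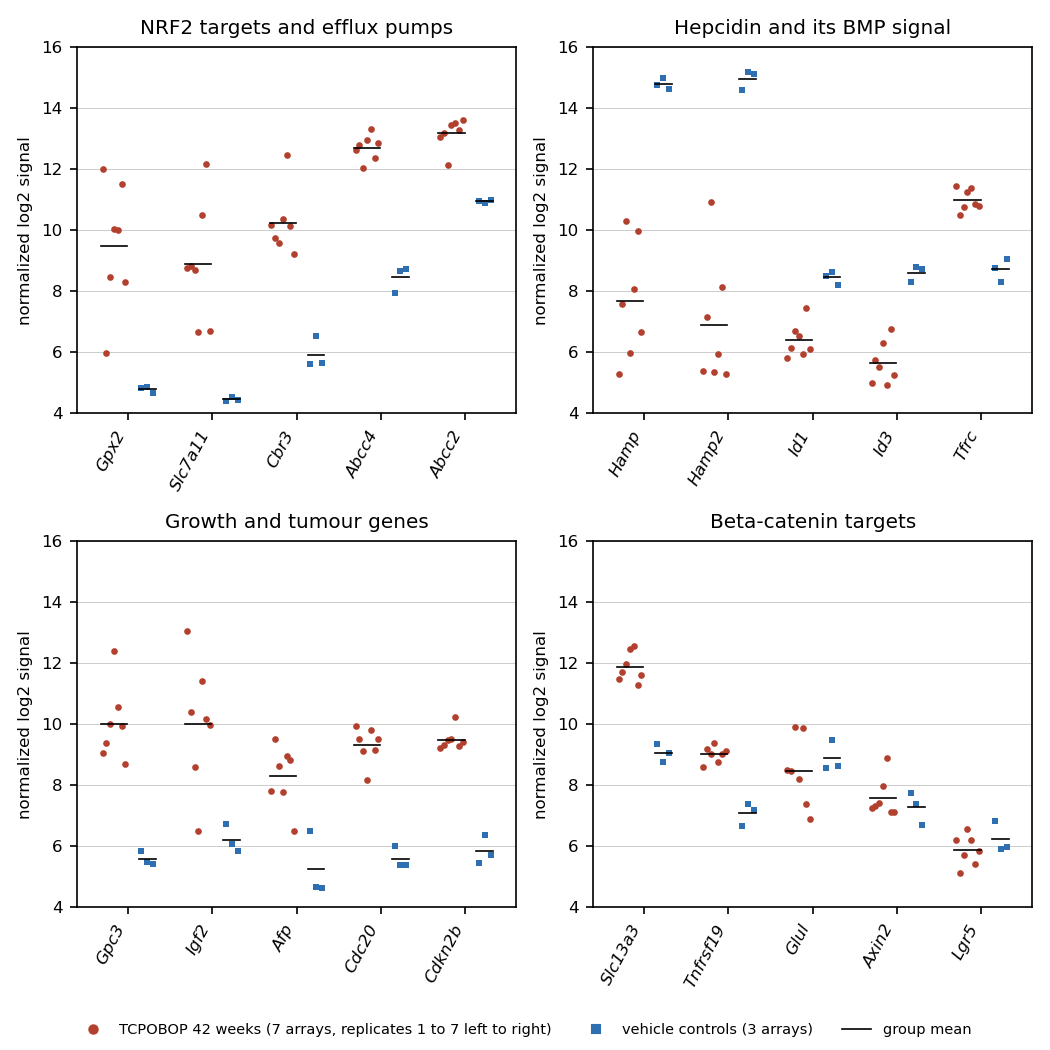
Normalized log2 signal (vertical axis) of selected genes on each array: NRF2 targets and pumps, hepcidin with BMP-driven genes and Tfrc, growth and tumour genes, and β-catenin targets. Red circles are the 7 TCPOBOP 42 weeks samples in replicate order, blue squares the 3 controls and black lines group means; Abcc4 and Cdkn2b are tightly grouped in treated samples, while Gpx2, Slc7a11 and Igf2 spread widely and Glul, Axin2 and Lgr5 overlap the controls.

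The transcription factors that hold the hepatocyte programme were lower in part. Of 23 tested, 11 were lower and 0 higher (median change -0.69, or -0.50 with slide as a block and -0.84 within slide 2). Cebpa, which restrains division and drives metabolic genes, had levels of 5.52, 6.88 and 7.33 in treated samples, against 8.60, 8.75 and 9.21 in controls (-2.08 ± 0.39, adjusted p = 0.000253). Prox1, which sets hepatocyte identity from the fetal liver on, fell by 1.86 ± 0.22 and Tcf7l2, the main β-catenin partner of the liver, fell by 1.69 ± 0.19. Cux2, a repressor found in female mouse liver, had levels of 4.80, 6.30 and 6.85 in treated samples and 8.93, 10.15 and 9.39 in controls (-3.52 ± 0.68, adjusted p = 0.000347). Hnf4a, outside the naming rule and chosen after its values were seen, lay at 12.12, 12.66 and 12.79 in treated samples and 12.61, 12.35 and 12.22 in controls and did not pass the test (0.21 ± 0.15, adjusted p = 0.292). Of 23 nuclear receptors, 12 were lower and 3 higher (median change -0.69, or -0.64 with slide as a block and -0.55 within slide 2), Pparg being the largest rise and Rxrg the largest fall (-1.98 ± 0.31). In the growth hormone and IGF axis, 4 of 23 genes were higher (17.4%, against 17.3% of all genes) and 9 lower (39.1%, against 19.1%). Igf1, the growth factor that growth hormone induces in liver, had levels of 8.98, 10.19 and 11.62 in treated samples, against 13.25, 13.38 and 13.53 in controls (-3.22 ± 0.64, adjusted p = 0.000419). Egfr, the EGF receptor, fell by 3.38 ± 0.60. Igf2, the fetal growth factor, was higher but uneven, at 6.51, 10.17 and 13.05 in treated samples and 6.73, 6.07 and 5.84 in controls (3.79 ± 1.20, adjusted p = 0.0165); treated replicate 4 lay inside the control range, and the call was lost on the authors' normalized values, without background correction and without control replicate 2 or 3 (adjusted p up to 0.0642).

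Genes that differ between male and female mouse liver fell on both sides. Of 13 genes biased to males, 6 were lower and 2 higher, and of 21 biased to females, 9 were lower and 4 higher; without any 1 of the 3 controls the lower counts were 4 and 6. Cyp3a41b, a P450 of female liver, went undetected in all treated samples and passed the detection filter only through the controls. Its control levels were 8.90, 10.08 and 10.04, which puts it at least 22.2-fold lower in treated samples. Acot3, a female-biased thioesterase of peroxisomes, fell by 4.30 ± 0.76. On the male side Nudt7, a hydrolase that splits coenzyme A, had levels of 9.20, 10.41 and 10.97 in treated samples and 13.80, 13.79 and 14.02 in controls (-3.60 ± 0.29, adjusted p = 1.99e-09), and Serpina1e fell by 3.38 ± 0.39.

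Fetal liver and tumour genes had the largest median change of the 48 lists. Of 33 tested oncofetal and liver tumour genes, 22 were higher and 2 lower (median change 2.70, 2.69 with undetected genes at their bound, 2.94 with slide as a block and 1.80 within slide 2). Gpc3, a glypican of fetal liver and liver cancer, had levels of 8.69, 9.92 and 12.40 in treated samples, against 5.83, 5.47 and 5.42 in controls (4.43 ± 1.16, adjusted p = 0.00473), with treated replicate 4 highest. Afp, the fetal form of albumin, lay at 6.51, 8.64 and 9.52 in treated samples and 6.50, 4.65 and 4.63 in controls, 1 of which detected it (3.03 ± 0.67, adjusted p = 0.00125), and the lowest treated and highest control samples almost met. Lgals3, a galectin of tumours and macrophages, was uniform at 12.81, 13.60 and 13.86 in treated samples and 8.93, 8.65 and 8.34 in controls (4.80 ± 0.27, adjusted p = 4.97e-12). The list was drawn up with earlier results of these samples known, so its direction is no independent evidence.

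Genes of cell division rose with them. Of 35 tested, 25 were higher (71.4%, against 17.3% of all genes) and 2 lower (5.71%, against 19.1%). The median change was 1.43, or 1.53 with slide as a block and 1.42 within slide 2. When an array was left out 20 to 27 were higher, and with slide as a block 0 were lower. Of the 25 higher genes, 7 were detected on no control array, so treated arrays alone brought them through the detection filter. With undetected genes at their bound the median was also 1.43. Cdc20, which starts the separation of chromosomes, had levels of 8.16, 9.50 and 9.94 in treated samples and 6.02, 5.39 and 5.37 in controls (3.71 ± 0.46, adjusted p = 1.48e-06). Prc1, which builds the central spindle, had levels of 7.45, 9.76 and 9.93 in treated samples, against 6.30, 5.15 and 5.51 in controls (3.66 ± 0.50, adjusted p = 6.42e-06). Rrm2, the regulated subunit that makes DNA building blocks, was detected on no control array and was at least 6.48-fold higher. Birc5, the mitotic survivin, rose by 2.98 ± 0.51. In Cdc20, Prc1 and Birc5 treated replicate 4 was lowest, and over the whole list its mean level of 6.82 was under those of the other treated arrays (7.53 to 8.08) and above the controls (6.17 to 6.18). The brakes of the cycle moved too: Cdkn2b, an inhibitor of the early cycle, had levels of 9.22, 9.40 and 10.23 in treated samples and 5.46, 6.36 and 5.70 in controls (3.65 ± 0.26, adjusted p = 2.36e-10). Gadd45b, a stress gene that CAR induces directly, had levels of 8.44, 9.33 and 9.81 in treated samples and 5.07, 5.65 and 5.35 in controls (3.85 ± 0.42, adjusted p = 2.59e-07), and Bbc3, the death-promoting p53 target, fell by 2.02 ± 0.27. Over the 21 p53 targets and inhibitors 7 were higher and 4 lower; without control replicate 3 the counts were 4 and 2. Jun, a growth-related immediate early gene, rose by 2.58 ± 0.33 and Fosl2, its dimer partner, by 2.34 ± 0.27.

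β-catenin, activated by mutation in many liver tumours, has a set of hepatocyte targets that showed no common direction. Of 19 tested, 5 were higher and 2 lower (median change -0.38, also with slide as a block, and -0.48 within slide 2); the lower count was 0 without treated replicate 4, 5 or 7 or control replicate 1 or 2, and 1 without treated replicate 1, 2 or 3 or control replicate 3. Wif1, a secreted Wnt inhibitor, had levels of 7.04, 8.46 and 9.68 in treated samples, against 4.91, 5.17 and 5.70 in controls (3.12 ± 0.51, adjusted p = 6.02e-05). Slc13a3, a dicarboxylate carrier, had levels of 11.30, 11.70 and 12.57 in treated samples and 9.34, 8.75 and 9.07 in controls (2.82 ± 0.29, adjusted p = 8.67e-08), and Tnfrsf19 rose by 1.92 ± 0.29. The hallmark target Glul, glutamine synthetase, lay at 8.51, 8.46, 9.89, 8.21, 9.88, 7.37 and 6.90 in treated replicates 1 to 7 and at 8.57, 9.47 and 8.61 in controls (-0.42 ± 0.61, adjusted p = 0.622), so that replicates 3 and 5 were above every control and the other 5 below every control. Axin2, a feedback inhibitor, stood at 7.97 and 8.89 in treated replicates 4 and 5 and at 7.12 to 7.43 in the other treated samples, against 7.75, 7.39 and 6.71 in controls (0.30 ± 0.59, adjusted p = 0.728). Lgr5 (-0.38 ± 0.40, adjusted p = 0.483) and Ctnnb1, the gene for β-catenin (-0.37 ± 0.18, adjusted p = 0.122), did not pass the test. Tbx3 was called only narrowly (-1.05 ± 0.40, adjusted p = 0.0453), a call that 13 of the 26 alternatives ended. Against 28 weeks of TCPOBOP the list stood higher, with 8 of 19 higher and 0 lower, where 7.76% of all genes were higher and 8.46% lower. The median of these changes was 1.09, and the median change of the list between 28 weeks and controls was -1.25. The 2 medians use the same 28 week arrays with opposite sign, so they are not independent and were not compared. Axin2 was 1.97 higher than at 28 weeks (adjusted p = 0.0265) and Lgr5, detected on 0 of the 3 arrays at 28 weeks, at least 1.70-fold higher (adjusted p = 0.0445).

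Mitochondrial and ribosomal genes showed small shifts. Of 53 genes of oxidative phosphorylation, 26 were lower and 1 higher (median change -0.49, or -0.42 with slide as a block and -0.50 within slide 2), but the lower count was 9 with slide as a block, 12 without control replicate 2 and 16 without control replicate 3. Sdhb, the iron-sulfur subunit of complex II, had levels of 10.29, 10.62 and 11.15 in treated samples, against 12.06, 12.10 and 12.40 in controls (-1.50 ± 0.24, adjusted p = 5.25e-05). Ribosomal protein genes were higher for 14 of 47 and lower for 0, the largest being Rplp0 (1.49 ± 0.27, adjusted p = 0.000189); with median scaling 5 were higher. Chaperones of the endoplasmic reticulum had 3 higher (11.1%, against 17.3% of all genes) and 3 lower (11.1%, against 19.1%) of 27. These counts moved by more than 1.5 times when treated replicate 1, 6 or 7 or control replicate 2 or 3 was left out. Trib3, a pseudokinase that rises with amino acid and protein-folding stress, had levels of 11.36, 12.11 and 12.47 in treated samples and 8.31, 8.73 and 8.39 in controls (3.58 ± 0.33, adjusted p = 2.22e-08).

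Markers of the cells that share the liver with hepatocytes also moved, and in bulk RNA fewer cells of a type and less RNA per cell cannot be told apart. Hepatocyte markers, which define the tissue, were present on every array: of 19 tested, 5 were lower and 0 higher (3 lower with slide as a block; median change -0.05, or -0.12 with slide as a block and -0.14 within slide 2), and their mean level was 12.90 to 13.15 in treated samples and 13.61 to 13.71 in controls. Endothelial markers were lower for 15 of 26 and higher for 1 (median change -0.94, or -0.84 with slide as a block and -0.81 within slide 2), at a mean level of 6.80 to 7.87 in treated samples and 8.30 to 8.51 in controls. With genes undetected in a whole group at their bound the median was -0.81. The 4 largest falls by the naming rule follow. Clec4g, a lectin of sinusoidal endothelium, had levels of 5.05, 8.64 and 10.60 in treated samples, against 12.48, 12.71 and 12.42 in controls (-4.35 ± 0.92, adjusted p = 0.000796), with replicates 1 and 7 lowest. Gpr182 had levels of 4.58, 5.41 and 7.24 in treated samples and 9.00, 9.77 and 8.63 in controls (-3.39 ± 0.54, adjusted p = 3.93e-05), and Oit3 fell by 3.14 ± 0.49 and the nuclease Dnase1l3 fell by 3.15 ± 0.47. Wnt2 and Rspo3, signals by which central vein endothelium maintains hepatocyte zones, were chosen after their values were seen: Wnt2 was detected on no treated array and was at least 4.82-fold lower, and Rspo3 fell by 2.80 ± 0.39. Of the 10 members that did not pass the test, the general endothelial genes Pecam1 (0.58 ± 0.28, adjusted p = 0.114, with probes of opposite sign) and Cdh5 (-0.24 ± 0.27, adjusted p = 0.529) and the sinusoidal genes Stab1 (0.63 ± 0.36, adjusted p = 0.18, with probes of opposite sign) and Lyve1 (-0.13 ± 0.50, adjusted p = 0.862) are examples, and Emcn was the 1 that rose (0.91 ± 0.25, adjusted p = 0.00608); these, too, were chosen after their values were seen. The part of endothelial or other cell numbers in the results above was not tested.

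Macrophage markers were higher in part. Of 21 tested, 9 were higher (42.9%, against 17.3% of all genes) and 2 lower (9.52%, against 19.1%; median change 0.63, or 0.64 with slide as a block and 0.46 within slide 2), and 6 were higher without control replicate 2; 0 were lower with slide as a block or without any 1 of the controls, 1 without treated replicate 1 or 7 and 4 without treated replicate 3. Their mean level was 7.93 to 8.89 in treated samples and 7.50 to 7.60 in controls. Beside Lgals3, the endotoxin receptor gene Cd14 had levels of 8.79, 9.96 and 10.34 in treated samples and 6.88, 6.84 and 6.71 in controls (2.92 ± 0.38, adjusted p = 3.09e-06). Trem2, of lipid-laden and tumour macrophages, had levels of 5.45, 6.77 and 9.13 in treated samples, against 4.58, 5.31 and 4.69 in controls (2.10 ± 0.48, adjusted p = 0.00158). Gpnmb, of the same cells, ran from 6.92 to 13.90 over the treated samples and stood at 6.45, 4.77 and 4.53 in controls (4.17 ± 1.09, adjusted p = 0.00453, but 0.0764 with slide as a block). The Kupffer cell lectin Clec4f, chosen after its values were seen, was undetected on 2 of 7 treated arrays, with levels of 4.48, 6.18 and 8.14 in treated samples and 8.39, 8.06 and 8.11 in controls (-1.98 ± 0.68, adjusted p = 0.0272, but 0.136 with slide as a block). Of 7 tested T, NK and B cell markers 0 were called, 0 of them with an unadjusted p under 0.05 in limma. Interferon-stimulated genes had 5 higher (17.9%, against 17.3% of all genes) and 4 lower (14.3%, against 19.1%) of 28. The higher count was 3 without any 1 of the controls and 2 with slide as a block, and the lower count 2 without control replicate 1 or 3. The chemokine Cxcl10 rose by 2.88 ± 0.49.

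Stellate cell and matrix genes were lower in part. Of 30 tested, 12 were lower (40.0%, against 19.1% of all genes) and 4 higher (13.3%, against 17.3%; median change -0.53, or -0.65 with slide as a block and -0.50 within slide 2), at a mean level of 6.57 to 8.0 in treated samples and 7.67 to 7.75 in controls. Lrat, which stores retinol in quiescent stellate cells, was above background on 1 treated array, with levels of 4.57, 4.89 and 5.24 in treated samples and 7.07, 8.02 and 8.58 in controls (-3.01 ± 0.34, adjusted p = 3.53e-07). Reln, another quiescent marker, fell by 3.51 ± 0.75 and Ecm1 fell by 3.41 ± 0.58. Col1a1, the main fibrillar collagen, was detected on no control array and on all treated arrays (6.87, 9.23 and 9.83), at least 14.6-fold higher, while Col3a1, chosen after its values were seen, did not pass the test (-0.41 ± 0.58, adjusted p = 0.611). Vim, the filament of mesenchymal cells, had levels of 8.70, 9.31 and 10.94 in treated samples and 7.17, 5.86 and 6.74 in controls (3.02 ± 0.66, adjusted p = 0.00113). Bile duct and progenitor markers were tested for 8 of 18 listed genes, 2 of them higher and 0 lower: Prom1 rose by 3.13 ± 0.41 and Bicc1 by 2.91 ± 0.43, while the duct keratins Krt7 and Krt19 passed the detection filter on too few arrays to be tested. Erythroid markers were lower for 3 of 7; the count was 1 without treated replicate 2 or 7 or control replicate 1 or 2 and 5 without treated replicate 5.

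**Figure D4:**
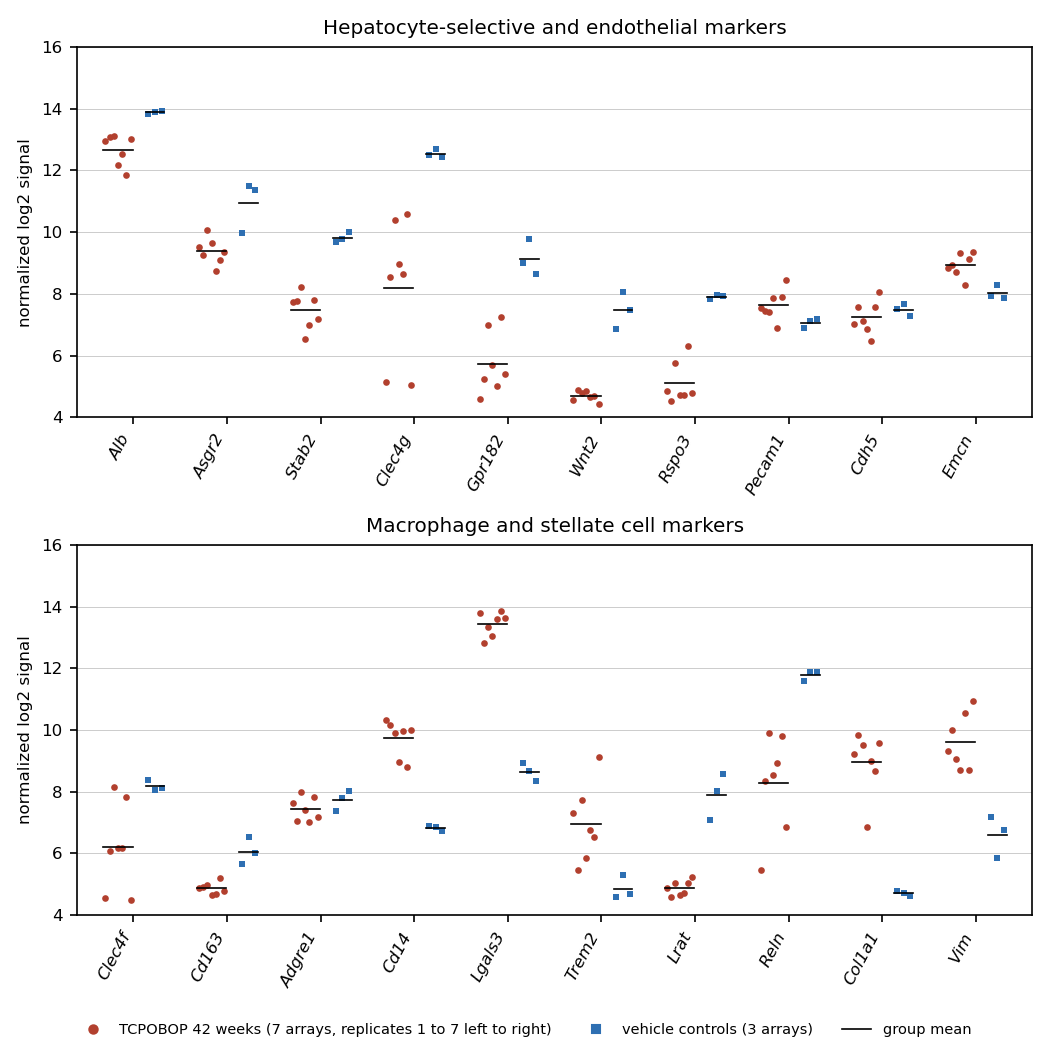
Normalized log2 signal (vertical axis) of hepatocyte and endothelial markers (top) and macrophage and stellate cell markers (bottom) on each array. Red circles are the 7 TCPOBOP 42 weeks samples, blue squares the 3 controls and black lines group means; in treated samples the endothelial genes Stab2, Clec4g, Gpr182, Wnt2 and Rspo3 lie below every control, while Pecam1 and Cdh5 overlap them. The markers plotted were chosen after their values were seen.

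The 7 treated samples were less alike than the controls. The median SD over genes was 0.378 in treated samples, against 0.229 in controls and 0.210 at 28 weeks (0.243, 0.147 and 0.137 on the authors' normalized values). An SD over 1 was found for 372 genes in treated samples and for 35 in controls. These figures rest on 7 treated arrays but on only 3 controls and 3 samples at 28 weeks, which limits the comparison. On the first principal component of the 10 arrays, with 60.0% of the variance, treated samples lay at 12.2 to 41.3 and controls at -80.8 to -72.6; replicate 3 was the treated sample nearest the controls at 12.2, the next being replicate 4 at 28.2. Replicate 3 was the treated sample closest to the control mean for 509 of the 1842 higher genes and 634 of the 2039 lower genes, against 166 to 308 and 174 to 290 for each of the other 6. Without it, 4009 genes were called. On the second component, with 9.9% of the variance, replicate 6 stood apart at 51.7, against -32.3 to -0.1 for the other treated samples. Replicate 6 had the lowest mean level of cholesterol synthesis genes, 9.09 against 9.80 to 10.39 in the other treated samples and 10.01 to 10.32 in controls.

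Among single genes, those with the largest SD in treated samples were often near background in controls and high in part of the treated samples. Cldn10, a tight junction protein, ran from 4.76 to 14.18, with replicates 1, 6 and 7 at 13.18, 14.18 and 10.88 and controls at 4.65, 5.03 and 5.70; its call (4.10 ± 1.60, adjusted p = 0.0488) ended under 17 of 26 alternatives. Rhox5, a homeobox gene of the testis, was at 6.09 in replicate 1, inside the control range, and between 7.63 and 13.50 in the others, against 6.50, 4.90 and 4.53 in controls (4.79 ± 1.33, adjusted p = 0.00715). Psg21, a pregnancy-specific glycoprotein, was detected on all treated arrays (5.79, 7.99 and 12.64) and on no control array, at least 11.3-fold higher, and highest in replicate 6. Kcnk1, a potassium channel, was high in replicates 1 and 2 (9.51 and 10.50) and lower in the others (4.49 to 6.98, controls 4.58, 5.07 and 4.64), and did not pass the test (1.89 ± 1.08, adjusted p = 0.18). Serpina12, an insulin-sensitising serpin, was the reverse, near control levels in replicates 1, 3 and 5 (13.05 to 13.73) and at 8.30 in replicate 6, against 13.79, 12.94 and 13.09 in controls (-2.03 ± 0.99, adjusted p = 0.115). Pacsin1, a membrane-bending protein of neurons, was high in replicates 2 and 6 (9.08 and 10.51) and was undetected in controls; the mean of the treated arrays was at least 2.72-fold higher, which did not pass the test (adjusted p = 0.123). The replicates that were high thus differed from gene to gene.

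**Figure D5:**
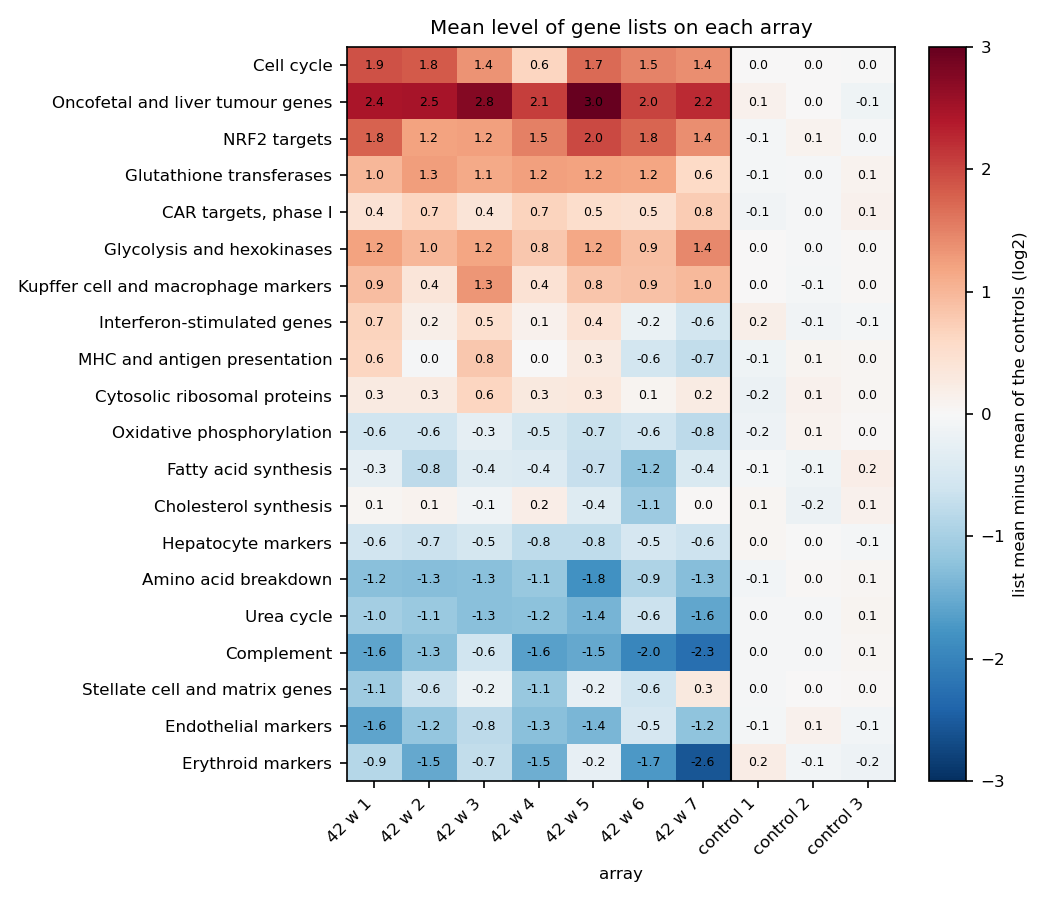
Mean level of 20 gene lists on each of the 10 arrays, as the difference from the mean of the 3 controls on the log2 scale (red higher, blue lower; numbers in the cells). The 7 TCPOBOP 42 weeks samples stand left of the line and the controls right of it; cell cycle genes are least raised in replicate 4, cholesterol synthesis genes are low in replicate 6, and interferon and MHC genes differ in direction among the treated samples.

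Set against 28 weeks of TCPOBOP, the 42 week samples differed at 1727 genes (16.2%), 826 higher (7.76%) and 901 lower (8.46%); without 1 of the 3 samples at 28 weeks the count was 820 to 953. Of 24 CAR target and phase I genes, 3 were higher and 4 lower than at 28 weeks. Ephx1 was 0.59 higher (adjusted p = 0.0189) and Cyp1a2 0.67 higher (adjusted p = 0.0202), and Cyp2b9 differed by -2.73 (adjusted p = 0.0219). Cyp2b10 (0.04, adjusted p = 0.87) and Cyp2c55 (-0.00, adjusted p = 0.993) did not pass the test. For Cyp2b10 the 42 week levels sat at the top of the scale, where differences are compressed, so a further rise could not be measured. Of 23 glutathione transferases 3 were higher and 2 lower, and of 27 glucuronosyl- and sulfotransferases 0 were higher and 6 lower, among them Sult3a1 (-2.31, adjusted p = 0.00199). Cell cycle genes had 4 higher and 1 lower of 35 against 28 weeks, and Chil1 differed by -0.25 (adjusted p = 0.865). Larger shares differed among NRF2 targets (11 higher and 1 lower of 22), complement genes (14 lower of 24), oncofetal genes (13 higher and 1 lower of 33) and endothelial markers (13 lower and 1 higher of 26). These lists did not stand alone. Export pumps had 6 higher and 2 lower of 15, and stellate cell and matrix genes 4 higher and 10 lower of 30. Fatty acid synthesis and hepatocyte transcription factors each had 2 higher and 8 lower of 23, and amino acid breakdown 17 lower of 42. Afp and Gpc3, each detected on 1 of the 3 arrays at 28 weeks, were 3.27 higher (adjusted p = 0.00232) and 4.97 higher (adjusted p = 0.00566); differences from signals so close to background are approximate. Bglap2, detected on 2 of those arrays, was 5.19 higher (adjusted p = 4.7e-05), Slc12a1 5.13 higher (adjusted p = 0.000686) and Gstp2 4.92 higher (adjusted p = 6.57e-06). The change against controls and the change against 28 weeks share the 42 week samples, so they are given side by side and were not compared.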

How the data were processed

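RNA of 22 liver samples was measured on Illumina mouse bead arrays. The probe intensity values and detection p-values were deposited by the authors in a table that was not normalized, and a second table of intensity values normalized by the authors, per the file headers; BeadStudio 3.0.19.0 is named per the submitters' processing notes, and the normalization method is not given in the sources used here. From the first table, background was corrected by normexp (limma's nec, offset 16), the negative-control level being estimated through the detection p-values, and log2 values were quantile normalized over all 22 arrays (limma 3.58.1, R 4.3.3). The authors' columns name the samples, which were grouped by title.

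Probes detected (p under 0.05) on at least 3 of the 10 arrays were kept, 19407 of 45281, and the brightest kept probe with 1 symbol stood for each of 10650 genes. In the platform annotation 34885 probes have 1 symbol, 18 several and 10378 none. Of 4062 genes with several kept probes, 1219 had probes of opposite sign, 236 of them called. limma was fitted to all 4 groups with 18 residual degrees of freedom, without slide or replicate number, and adjusted by Benjamini-Hochberg over all genes. The number of arrays limits the precision. The procedure was tested on simulated data. Where a gene's probe was undetected in a whole group, a bound is given in place of a fold change, and list medians are fitted values unless a bound is named. An adjusted p printed beside a bound rests in part on signals at background.

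The genes named are the 12 largest rises and 12 largest falls without overlap, up to 4 called members with the largest change in each list, 12 genes chosen for CAR, β-catenin and tumour biology, and the 10 with the largest SD at 42 weeks, with unnamed loci and genes with probes of opposite sign left out; Nr1i3 was kept as 1 of the 12, and other genes are said to be chosen later. The samples, genes and 48 gene lists were chosen with earlier results of these data known. Same-numbered samples did not deviate together (correlations -0.0478, -0.069 and -0.0128), so numbers were not taken to pair them. Alternatives covered background, normalization, filters, probe choice, slide, weights, the spread and each replicate left out.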

Additional observations from a re-analysis of the deposited data

Results flagged for a closer look

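Among the 160 genes named, 19 had 1 treated sample far from the other 6, by Dixon's gap criterion (0.568 for 7 samples); chance alone gives about 1 in 20 groups. Treated replicate 3 was the distant sample in 8 of them. It was lower than the other treated samples for Abcc2 (12.14), Cyp2c55 (13.70), Ephx1 (14.66) and Hnf4a (12.12). It was higher for Bhmt (8.50), Bdh2 (7.04), Dct (5.14) and Atp5e, an ATP synthase subunit (9.21). For Abcc2, Cyp2c55, Ephx1, Bhmt, Bdh2, Dct and Atp5e its distance lay towards the controls.

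Treated replicate 4 was low for Prc1 (7.45), Birc5 (6.89) and Col1a1 (6.87). Replicate 5 was high for Cbr3 (12.47) and Cdkn2b (10.23). Replicate 6 was low for Dhcr7, of the last step of cholesterol synthesis (6.20), for Hadh, of fatty acid oxidation (6.11), and for Cyp2e1 (14.85), and high for Mmp9, a matrix protease (6.04). Replicate 7 was low for Mup3 (6.08) and replicate 1 for Prdx1 (14.50).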

How the results depend on the processing

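The 3881 genes called at 42 weeks against controls became 2847 with slide as a block, 2844 with median scaling, 3812 with slide as a random block and 3857 on the authors' normalized values, all within 1.5 times. With the replicate number as a block (replicate block) 3403 were called; the numbers do not pair the samples. Leaving out 1 array gave 2688 to 4009 calls, 1337 to 1894 higher and 1351 to 2115 lower, each lowest without control replicate 2. Without slide 1, an alternative chosen after seeing the data, 3708 were called. Against 28 weeks, 1063 were called with median scaling and 820 to 1925 with 1 array left out. The median SD at 42 weeks was 0.243 on the authors' normalized values and 0.361 to 0.383 with 1 treated array left out. The causes were not tested. Of the 144 named genes that were called, 0 changed sign under any of the alternatives that gave a value (22 to 25 of them for 8 genes, 26 for the others), 13 lost the call under at least 1 and 7 when an array was left out. With slide as a block 135 stayed called, and within slide 2 all 144 kept their direction. The direction within slide 2 is no independent check, because its arrays were also in the main fit and the genes were named for large changes. For genes in which no treated array overlapped a control, the direction within slide 2 could not differ. The calls lost with slide as a block were those of Atp5e (adjusted p = 0.0707), Bmpr1a (0.131), Clec4f (0.136), Dhcr7 (0.0634), Gpnmb (0.0764), Mmp9 (0.08), Otc (0.107), Pck1 (0.057) and Tbx3 (0.195) in limma. Only 3 controls were available, no control shared slide 1, and signals near background or near the top of the scale limit what differences could be measured.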

Other observations

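The other gene lists gave these counts. Of 17 cholesterol synthesis genes 3 were higher and 5 lower (3 lower with slide as a block). Of 24 Ras-MAPK feedback and immediate early genes 6 were higher and 4 lower; the higher count was 3 with slide as a block, and the lower count was 2 without control replicate 2 or 3 and 7 without slide 1. Of 19 Hippo and TGF-beta targets 4 were higher and 5 lower, and of 14 clock genes 2 were higher and 2 lower. Heat shock chaperones were higher for 3 of 19, a count of 6 without slide 1. Of 19 MHC and antigen presentation genes 3 were higher and 4 lower; the higher count was 1 without control replicate 1 and 5 without treated replicate 7, and the lower count 2 without control replicate 2. Neutrophil markers had 1 higher and 1 lower of 5, and adipose and pancreas markers 2 higher and 1 lower of 5, with 0 higher without control replicate 3. Over all genes 17.3% were higher and 19.1% lower.

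Cyp2e1, the ethanol-oxidising P450 of the central lobule, had levels of 14.85, 15.15 and 15.29 in treated samples and 15.51, 14.85 and 14.77 in controls (0.10 ± 0.21, adjusted p = 0.746), at the top of the scale, where differences are compressed.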
